A study of Mus musculus with 12 samples.

Results

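The 9 genes described here are regulators of cell cycle arrest and markers of cellular senescence, chosen by name out of 20614 genes measured in midbrain astrocytes. They are the CDK inhibitors Cdkn1a, Cdkn1b, Cdkn2a and Cdkn2c, the tumour suppressor Trp53 and its ubiquitin ligase Mdm2, the retinoblastoma gene Rb1, the nuclear lamina gene Lmnb1 and Igfbp5, which encodes a secreted binding protein for insulin-like growth factors. All 9 were found in the table. The study set out to learn what loss of Cd38, an enzyme that consumes NAD, does to astrocytes, and aged male mice of 3 genotypes were compared: 3 libraries of Cd38+/+ mice, 3 of Cd38+/- mice with 1 disrupted allele and 6 of Cd38-/- mice with both alleles disrupted. The disruption was present from conception and in every tissue, so the values are not those of an astrocyte-specific loss, and the labels name no further agent or transgene in any group. The mice were bred on C57BL/6J and were 12 to 14 months old, with a mean of 13.5 months. Astrocytes were taken with ACSA-2 beads from dissociated midbrain after depletion of other cells. The study uses midbrain here for dissected striatum, thalamus and substantia nigra, so the values are not limited to the midbrain proper. Whether 1 library came from 1 mouse is not stated per library, so p-values measure the spread between these libraries.

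A cell leaves the cell cycle when CDK inhibitors stop the cyclin-dependent kinases from phosphorylating Rb1, which then holds E2F transcription factors in check. Cdkn1a (p21) is the classical target of p53, and Mdm2 is both a p53 target and the ligase that marks p53 for degradation. Cdkn2a encodes p16INK4a, a widely used marker of senescence, and the alternative product p19ARF, which binds Mdm2. Senescent cells also lose lamin B1, the product of Lmnb1, and secrete a mixture of factors that can include Igfbp5. Mature astrocytes are mostly quiescent but can re-enter the cycle after injury.

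The values are TPM, read abundance per transcript length that the authors estimated per gene and scaled to the same total in each library. The read depth behind a value is unknown, so counting error cannot be stated, and a 0 does not bound the true level. Between 13160 and 13516 genes had a value above 0 in the Cd38+/+ libraries, against 16160 to 16327 in Cd38+/- and 15920 to 17906 in Cd38-/-. Among 11373 genes with a mean above 5 TPM over the 12 libraries, each Cd38+/+ library listed 112 to 221 at 0, and no other library listed more than 7. Over the same genes the SD of log2(TPM + 1) between libraries had a median of 0.482 for Cd38+/+, 0.197 for Cd38+/- and 0.23 for Cd38-/-. The Cd38+/+ libraries thus stood apart in detection and in spread, and this difference cannot be told apart from genotype. The summed TPM of 10 astrocyte markers was 10425.2 to 14895.8 in Cd38+/+, 15604.8 to 17505.9 in Cd38+/- and 11998.4 to 15031.5 in Cd38-/- libraries, and none of these markers was at 0 throughout a genotype. The summed TPM of 7 oligodendrocyte markers ranged from 1294.9 to 17799.1, that of 6 endothelial markers from 315.0 to 1793.9, and that of 6 ependymal and choroid plexus markers from 1619.1 to 8675.7. In the order Cd38+/+, Cd38+/- and Cd38-/-, the median sums were 4943.0, 3822.1 and 6237.7 for oligodendrocyte and 966.4, 451.5 and 614.7 for endothelial markers. For ependymal and choroid plexus markers they were 1697.1, 1869.5 and 3340.9. These sums thus differed between genotypes in their medians, with overlapping ranges. The sums over 8 neuronal, 4 oligodendrocyte precursor, 7 microglial and 7 mural and fibroblast markers all lay at or below 391.2 TPM. The neuronal marker Th, the oligodendrocyte marker Mog, the microglial markers Tmem119 and Cx3cr1 and the choroid plexus marker Kl were listed at 0 in all Cd38+/+ libraries. In bulk RNA, fewer cells of a type and less RNA per cell cannot be told apart.

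Cd38 itself followed the labels. The Cd38+/+ libraries listed 104.88, 120.04 and 148.64 TPM of it, and the Cd38+/- libraries 90.36, 90.7 and 90.8 TPM. Cd38-/- libraries ran from 8.54 to 21.86 TPM with a median of 15.67, below every other library. The study describes the allele as disrupted in some exons and reports near-complete loss of the transcript by RT-qPCR and in situ hybridization. TPM is per gene, so which part of Cd38 the remaining reads came from was not tested. Cd38 fell by 2.96 on the log2 scale in Cd38-/- against Cd38+/+ (limma q = 0.00116).

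Cdkn1a was the most abundant of the 4 CDK inhibitors among the members by mean TPM, and it was lower in most mutant libraries than in Cd38+/+ without passing the threshold. It lies at chr17:29090976-29100727 on the plus strand (ENSMUSG00000023067, GRCm38). RefSeq gives it 2 start sites 2790 bases apart, and the 250 bases before each are shown because p53 acts on this gene through its promoter. In the upstream window, chr17:29090729-29090978, the capitals mark a 20-base element at chr17:29090928-29090947, made of 2 adjacent p53 half-sites, which lies 51 to 32 bases before the start. In the downstream window, chr17:29093519-29093768, the capitals mark 2 GC boxes (GGGCGG on either strand), the motif bound by Sp1.
Cdkn1a upstream start: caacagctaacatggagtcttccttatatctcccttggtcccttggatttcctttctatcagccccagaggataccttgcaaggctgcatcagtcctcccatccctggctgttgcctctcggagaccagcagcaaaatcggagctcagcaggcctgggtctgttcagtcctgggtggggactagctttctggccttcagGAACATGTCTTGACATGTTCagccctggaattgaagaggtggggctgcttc
Cdkn1a downstream start: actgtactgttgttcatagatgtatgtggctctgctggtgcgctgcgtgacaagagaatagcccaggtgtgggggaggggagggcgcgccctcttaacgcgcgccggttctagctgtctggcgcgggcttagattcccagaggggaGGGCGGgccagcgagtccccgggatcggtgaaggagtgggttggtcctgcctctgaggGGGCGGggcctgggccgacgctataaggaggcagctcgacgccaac
The element has 0 mismatches to the p53 half-site consensus in its 5′ part and 1 in its 3′ part. Of 32851 promoter windows of the same length, 0.384% held such a pair with at most 1 mismatch in each part, and 7.13% held at least 1 perfect half-site on either strand. At least 1 GC box was present in 32.7% of the windows and 2 or more in 16.7%. Among the 10 windows of 7 members used here, half-sites were found in 3, those of Mdm2, Trp53 and upstream Cdkn1a, the pair in 1 and GC boxes in 5. A match is only a match of letters, and TPM is per gene, so the 2 starts of Cdkn1a could not be measured apart. An annotated transcript on the opposite strand, AC167363.2, shares exon bases with Cdkn1a.

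The Cd38+/+ libraries listed Cdkn1a at 133.77, 107.42 and 91.99 TPM. The Cd38+/- libraries listed it at 70.05, 74.59 and 66.98 TPM. In Cd38-/- libraries the lowest value was 63.78, the median 75.425 and the highest 105.36 TPM. All 3 Cd38+/- libraries therefore lay below all 3 Cd38+/+ libraries, and 5 of 6 Cd38-/- libraries did, while Cd38-/- replicate 1 reached into the Cd38+/+ range. The means were 111 ± 21.1 TPM (SD, n = 3) in Cd38+/+, 70.5 ± 3.83 TPM (SD, n = 3) in Cd38+/- and 77.3 ± 14.7 TPM (SD, n = 6) in Cd38-/-.

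Differences were tested with limma on log2(TPM + 1) across all genes with a mean above 5 TPM in at least 1 compared genotype, and a gene was called at a Storey q under 0.05 with at least a 1.2-fold change. Comparing Cd38-/- with Cd38+/+, 970 of 11722 genes or 8.28% were called, 752 higher and 218 lower, a split that became 553 and 392 under median-ratio scaling and 563 and 552 under quantile normalization. The fit gives each gene a single variance for both genotypes, but Cd38+/+, the smaller group, had the larger spread (median SD 0.482 against 0.23 in Cd38-/-). Its p- and q-values can therefore be too small and its intervals too narrow in this comparison. With library quality weights, 1 gene was called in it. Comparing Cd38+/- with Cd38+/+, 0 of 11763 genes were called by limma (0.0%), although 1586 or 13.5% had an unadjusted p under 0.05. Comparing Cd38-/- with Cd38+/-, 4 of 11563 genes or 0.0346% were called. Of the 9 members, 6 passed the filter in each comparison and 3, Cdkn2a, Cdkn2c and Lmnb1, were read from a fit without it. None of the 9 was called in any of the 3 comparisons by this rule. At an unadjusted p under 0.05, 1 of the 6 filtered members stood in each comparison, beside 23.6% of all genes in Cd38-/- against Cd38+/+, 13.5% in Cd38+/- against Cd38+/+ and 11.2% in Cd38-/- against Cd38+/-. Libraries without overlap were found for 0, 1 and 0 of the 6 members in the same order, beside 11.8%, 22.5% and 5.73% of all genes.

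For Cdkn1a the log2 difference was -0.63 ± 0.20 (SE) in Cd38+/- against Cd38+/+, a ratio of 0.645 with a 95% interval of 0.474 to 0.878. It did not pass the correction (limma q = 0.184), and the exact permutation test gave p = 0.1, the smallest that 3 libraries against 3 allow. In Cd38-/- against Cd38+/+ the log2 difference was -0.52 ± 0.18 (SE), a ratio of 0.698 with a 95% interval of 0.535 to 0.91. That difference had a two-sided exact permutation p of 0.0238, where 0.0119 is the smallest possible, and missed the threshold across genes at limma q = 0.0629. Between the mutant genotypes Cdkn1a differed by 0.11 on the log2 scale with a 95% interval of -0.20 to 0.42 (limma q = 0.585).

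The call on Cdkn1a turned on the settings while its direction did not. Over 22 other settings of the Cd38-/- comparison the log2 difference stayed between -0.64 and -0.24, and q ran from 0.0201 to 0.6. It passed the threshold in 5 of them: without the filter on low values (q = 0.0496), with median-ratio scaling (q = 0.0325), with quantile normalization (q = 0.0477), with all 12 libraries in one fit (q = 0.033) and without Cd38+/+ replicate 3 (q = 0.0201). In the Cd38+/- comparison it passed in 1 of 19, the fit of all 12 libraries (q = 0.0321), with q from 0.0321 to 0.679 over all of them. Changing the adjustment, the fold threshold, the trend or the filter, or fitting all 12 libraries, leaves the log2 difference as it was. Those settings could therefore not have changed its direction.

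**Figure D1:**
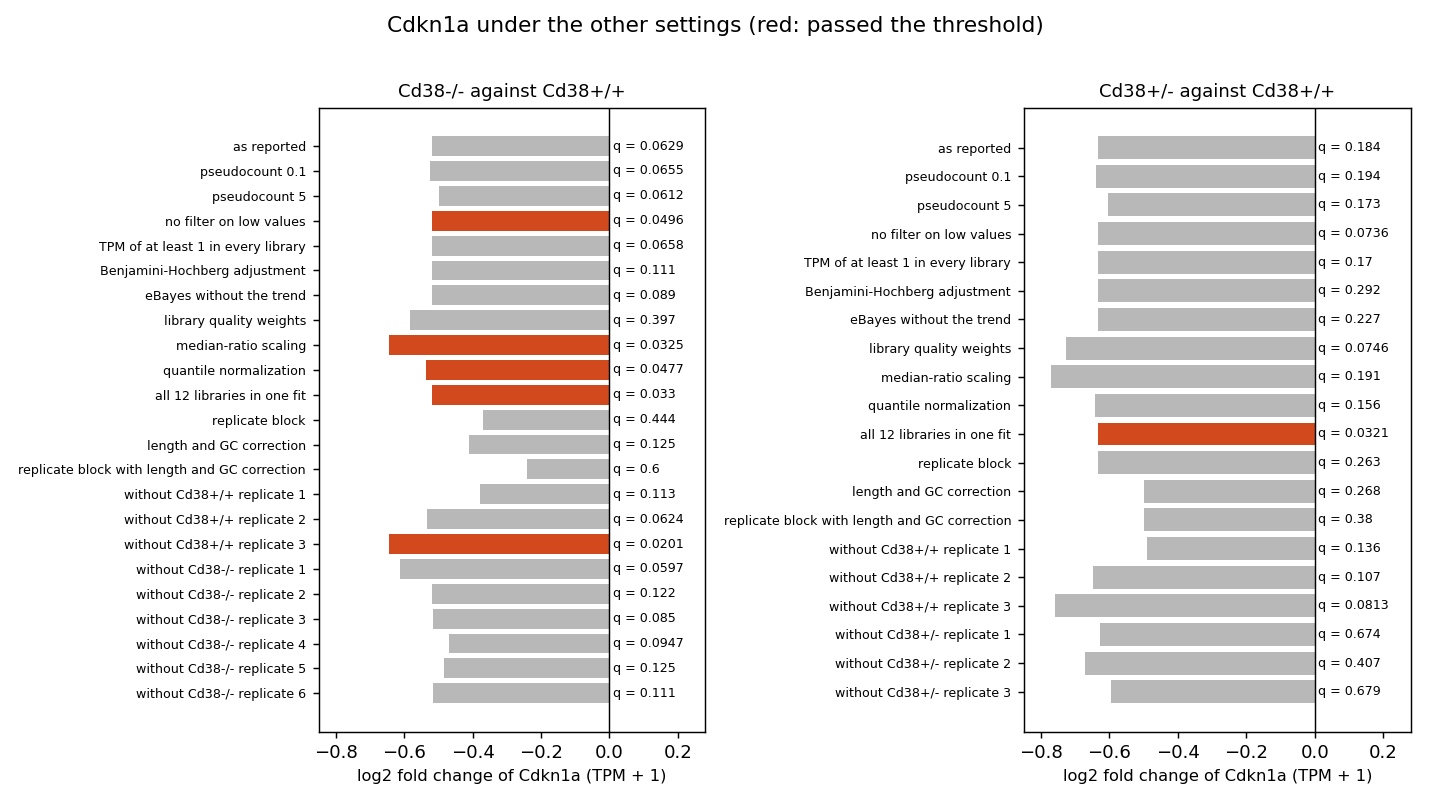
Log2 difference of Cdkn1a (horizontal axis, TPM + 1) in Cd38-/- against Cd38+/+ (left) and Cd38+/- against Cd38+/+ (right) under each setting, with the q-value beside each bar; red bars passed the threshold. All bars point below 0, and 5 on the left and 1 on the right are red.

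The libraries highest in Cdkn1a were also highest in the summed TPM of genes that respond to tissue dissociation. This was noticed after the values were seen. The list holds 13 immediate early and heat shock genes such as Jund, Fos, Egr1 and Hspa1a, and not Cdkn1a. Jund weighed most in the sum, at a mean of 398 TPM in Cd38+/+, 232 in Cd38+/- and 262 in Cd38-/-. Hspa1a and Hspa1b had higher means in Cd38-/- than in Cd38+/+, 44.2 against 37.2 and 57.63 against 48.95 TPM. Of 12 tested genes of the list, 3 had a log2 difference above 0 in that comparison and 9 below. The summed TPM of the list was 1167.1, 1087.2 and 922.3 in Cd38+/+ replicates 1, 2 and 3, the order in which Cdkn1a also stood. Within Cd38+/+ the sums of astrocyte, oligodendrocyte, endothelial, microglial and mural and fibroblast markers fell in this order too, and so did Cd38 itself. Those of neuronal, oligodendrocyte precursor and ependymal and choroid plexus markers did not. The order within Cd38+/+ is therefore not particular to the dissociation list. The summed TPM of that list was 749.2, 467.0 and 737.1 in Cd38+/- libraries. In Cd38-/- replicate 1, the library with 105.36 TPM of Cdkn1a, the sum was 1127.4, and in the other Cd38-/- libraries it ran from 564.6 to 893.1. The sums of p53 target genes, 892.4 TPM, and p53 regulators, 488.9 TPM, were also the highest of Cd38-/- in replicate 1. The peak in that library is therefore not particular to the dissociation list. In Cd38+/+ replicates 1, 2 and 3 the p53 targets summed to 904.0, 844.1 and 869.0 TPM, not the order of Cdkn1a. The p53 regulators were lowest in Cd38+/+ replicate 1, at 319.9 TPM. The 4 libraries with the most Cdkn1a were thus the 4 with the highest sums of the dissociation list. Among the lower libraries the orders did not match: Cd38+/- replicate 2 had the lowest sum, 467.0, and the most Cdkn1a of its genotype, 74.59 TPM, and Cd38-/- replicate 6 had a lower sum than replicate 4, 590.4 against 757.2, and more Cdkn1a, 75.17 against 63.78 TPM. Of the 12 tested genes of the list, 1 was called, Junb, an AP-1 subunit, which fell by 1.03 on the log2 scale from 102 ± 44.6 to 46.9 ± 7.53 TPM (limma q = 0.0249) in Cd38-/- against Cd38+/+, and the median of the 12 was -0.20 beside 0.15 for all genes. In Cd38+/- against Cd38+/+ the median was -0.59 beside 0.18 for all genes. The part of these genes in the Cdkn1a difference was not tested.

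**Figure D2:**
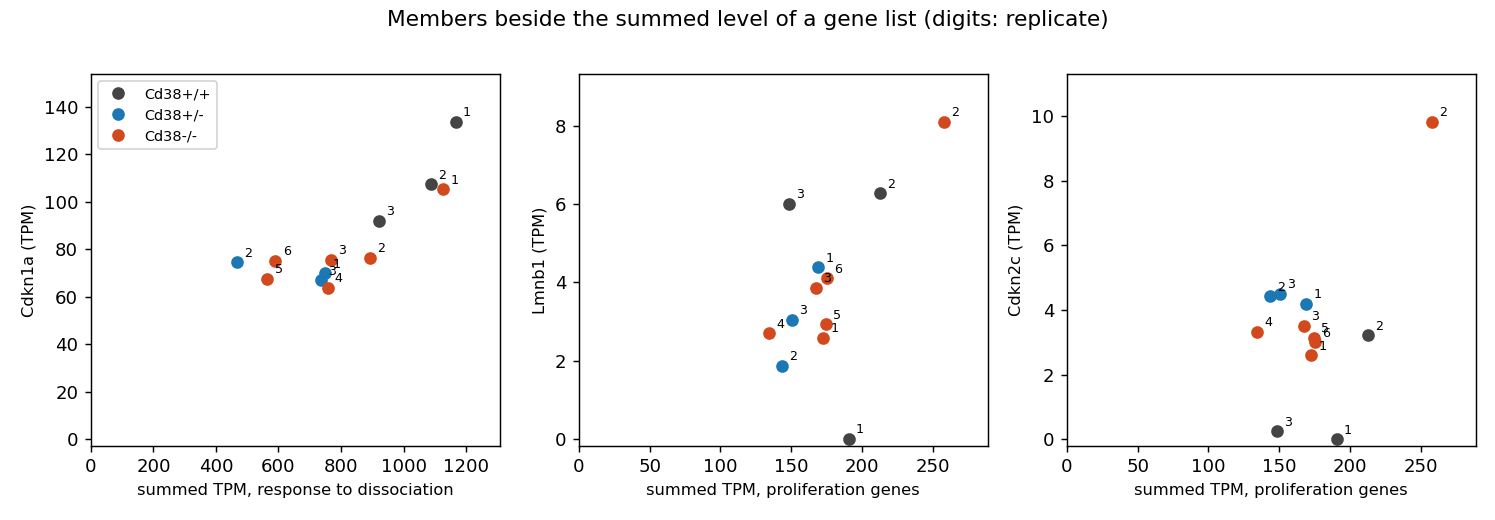
Each point is a library, with its replicate number; the horizontal axes give the summed TPM of a gene list and the vertical axes the TPM of Cdkn1a beside the dissociation list (left) and of Lmnb1 (middle) and Cdkn2c (right) beside the proliferation list. The 3 Cd38+/+ libraries and Cd38-/- replicate 1 are the 4 highest on both axes at left, and Cd38-/- replicate 2 is highest on both axes in the other panels.

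The other CDK inhibitors among the members were far less abundant. Cdkn1b (p27), which holds CDK2 in check in quiescent cells, lies at chr6:134920401-134925513 and stood at 8.99, 19.65 and 20.99 TPM in Cd38+/+ libraries and at 14.43, 11.08 and 14.91 TPM in Cd38+/- libraries. In Cd38-/- it ran from 11.1 to 16.74 TPM with a median of 13.985. The genotypes overlapped, because Cd38+/+ replicate 1 was the lowest of all 12 libraries and the other two the highest. Its log2 difference was -0.15 with a 95% interval of -0.78 to 0.49 in Cd38-/- against Cd38+/+ (limma q = 0.45), and -0.20 with an interval of -1.15 to 0.74 in Cd38+/- against Cd38+/+ (limma q = 0.529). The first turned to 0.01 without Cd38+/+ replicate 2 and to 0.06 without Cd38+/+ replicate 3.

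Cdkn2c (p18INK4c), an inhibitor of CDK4 and CDK6 at chr4:109660876-109667189, was listed at 0, 3.22 and 0.25 TPM in Cd38+/+ libraries. It was at 4.19, 4.42 and 4.5 TPM in Cd38+/- libraries and at 2.59 to 9.82 TPM with a median of 3.235 in Cd38-/- libraries. Cd38+/- lay wholly above Cd38+/+, and Cd38-/- overlapped it only through Cd38+/+ replicate 2. The gene stayed under 5 TPM on average in every genotype, where the Cd38+/+ libraries also listed more genes at 0. Without the filter its log2 difference was 1.47 ± 0.52 (SE) in Cd38-/- against Cd38+/+ (limma q = 0.0607, two-sided exact permutation p = 0.0476) and 1.62 ± 0.58 in Cd38+/- against Cd38+/+ (limma q = 0.14). In the Cd38-/- comparison it passed in 3 of 20 other settings: with a pseudocount of 0.1 (q = 0.0394), with all 12 libraries in one fit (q = 0.0315) and without Cd38+/+ replicate 2 (q = 0.0103), over a range of q from 0.0103 to 0.297. The difference ran from 0.58 to 2.98 on the log2 scale over these settings, so its size depends on the pseudocount. In the Cd38+/- comparison it passed in 2 of 17, with all 12 libraries (q = 0.044) and without Cd38+/+ replicate 2 (q = 0.0295), and q reached 0.36.

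Cdkn2a, at chr4:89274471-89294653 on the minus strand, was listed at 0 TPM in all 3 Cd38+/+, all 3 Cd38+/- and 5 of 6 Cd38-/- libraries. Cd38-/- replicate 5 listed it at 0.08 TPM. No fold change is given for it, and with the depth unknown a 0 does not show that the transcript was absent.

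Of the 4 further CDK inhibitors, 3 were tested and none was called in any comparison. In Cd38+/+ libraries Cdkn2d (p19INK4d) was listed at 8.76, 13.02 and 58.6 TPM, and in Cd38-/- at 31.54 to 39.7 TPM. Its log2 difference of 0.84 missed the threshold (limma q = 0.147), but was 1.63 without Cd38+/+ replicate 1 (limma q = 0.00139), the range of q over 22 settings being 0.00139 to 0.475. Cdkn2b (p15INK4b), the neighbour of Cdkn2a, was at 14.0 to 31.23 TPM in Cd38+/+ and at 9.02 to 18.31 TPM in Cd38-/- libraries, a log2 difference of -0.41 (limma q = 0.247). In Cd38+/- it was at 7.76 to 11.9 TPM, below all Cd38+/+ libraries, a log2 difference of -0.805 (limma q = 0.269). Libraries did not overlap for 22.5% of all genes in that comparison.

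Trp53, at chr11:69580359-69591873, had an even level in both mutant genotypes and an uneven one in Cd38+/+. Its values were 31.35, 31.58 and 31.52 TPM in Cd38+/- and ran from 28.85 to 35.16 TPM with a median of 30.495 in Cd38-/-. In Cd38+/+ they were 46.05, 24.32 and 51.97 TPM, so that the mutant libraries all lay between the lowest and the next Cd38+/+ value. On the log2(TPM + 1) scale its SD was 0.572 for Cd38+/+, 0.0053 for Cd38+/- and 0.103 for Cd38-/-, beside the medians over all genes given above. The log2 difference was -0.30 with a 95% interval of -0.80 to 0.19 in Cd38-/- against Cd38+/+ (limma q = 0.25). With Cd38+/+ replicate 2 left out it became -0.63 and passed the threshold (limma q = 0.0196), the only one of 22 settings in which it did, over q from 0.0196 to 0.622. Between Cd38-/- and Cd38+/- the log2 difference was -0.01 and the interval of the ratio 0.85 to 1.164, and the sign of so small a value changed with the scaling. Mouse Trp53 has a processed pseudogene, Trp53-ps, and how reads shared with it were counted is not given in the sources used here.

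Mdm2, at chr10:117688875-117710758, had higher means in both mutant genotypes than in Cd38+/+, with a wide spread. Cd38+/+ libraries held 51.47, 33.81 and 90.52 TPM of it and Cd38+/- libraries 95.8, 57.75 and 66.67 TPM. The Cd38-/- libraries ran from 53.89 to 106.19 TPM with a median of 79.54. The genotypes overlapped, since Cd38+/+ replicate 3 was among the higher libraries. Its log2 difference was 0.49 with a 95% interval of -0.13 to 1.11 in Cd38-/- against Cd38+/+ (limma q = 0.18), and 0.40 in Cd38+/- against Cd38+/+ (limma q = 0.395). Without Cd38+/+ replicate 3 the first was 0.86 and passed the threshold (limma q = 0.0218), the only one of 22 settings in which it did, over q from 0.0218 to 0.61.

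Rb1, at chr14:73183673-73325822, was listed at 18.1, 32.56 and 26.63 TPM in Cd38+/+, at 38.26, 32.26 and 30.91 TPM in Cd38+/- and at 21.78 to 35.69 TPM with a median of 26.43 in Cd38-/- libraries. All genotypes overlapped. The log2 difference of 0.10 in Cd38-/- against Cd38+/+ (95% interval -0.41 to 0.61, limma q = 0.467) turned to -0.02 with median-ratio scaling and -0.03 with quantile normalization. In Cd38-/- against Cd38+/- it was -0.31 with an interval of -0.66 to 0.04 (limma q = 0.357). Exons of Rb1 overlap those of Rcbtb2 and Lpar6 on the opposite strand in the annotation. The use of strand in the quantification is not given in the sources used here, so reads of these genes may not be told apart.

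Lmnb1, at chr18:56707813-56753424, was low throughout. It was listed at 0.01, 6.27 and 6.01 TPM in Cd38+/+, at 4.39, 1.88 and 3.05 TPM in Cd38+/- and at 2.59 to 8.1 TPM with a median of 3.4 in Cd38-/- libraries. The other two Cd38+/+ libraries lay above every Cd38+/- library, and replicate 1 lay below all others. The log2 difference of 0.36 in Cd38-/- against Cd38+/+ had a 95% interval of -1.09 to 1.81 (limma q = 0.352) and became -0.58 without Cd38+/+ replicate 1 (limma q = 0.181). In Cd38+/- against Cd38+/+ a difference of 0.10 became -0.84 without the same library (limma q = 0.213), and the 95% interval ran from -1.98 to 2.17. The sign also changed with every library kept, to -0.16 in the first comparison and -0.48 in the second with quantile normalization and to -0.09 in the second with a pseudocount of 5, so these data give Lmnb1 no stable direction.

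Lmnb1 and Cdkn2c were both highest in Cd38-/- replicate 2, at 8.1 and 9.82 TPM. The summed TPM of 18 proliferation genes was also highest there, at 257.9, beside 134.3 to 212.7 in the other 11 libraries. It was not the only such sum. Those of the G1 cyclin, kinase and Rb-E2F list, 953.6, and of the lamin and nuclear envelope list, 1917.3, were highest there too. Others were not, such as that of p53 targets, highest in Cd38+/+ replicate 1 at 904.0. These coincidences in 1 library were noticed after the values were seen, and their part in the levels of the 2 genes was not tested.

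Igfbp5, at chr1:72857932-72874884, had 56.18, 54.34 and 36.91 TPM in the Cd38+/+ libraries, and 72.61, 56.16 and 58.99 TPM in the Cd38+/- libraries. Across Cd38-/- it ran from 30.29 to 63.23 TPM with a median of 42.005. Cd38+/- held the highest level and 4 of 6 Cd38-/- libraries lay below all Cd38+/- libraries. The log2 difference was -0.52 ± 0.22 (SE) in Cd38-/- against Cd38+/-, with a 95% interval of -1.01 to -0.03, and did not pass the correction (limma q = 0.304, two-sided exact permutation p = 0.0952). It passed in 1 of 22 other settings, with library quality weights (limma q = 0.0056), which called 3120 genes in that comparison. Against Cd38+/+ the log2 difference was -0.16 with an interval of -0.72 to 0.39 in Cd38-/- and 0.36 with an interval of -0.19 to 0.90 in Cd38+/- libraries. Among Cd38+/- libraries, replicate 1 had the most Igfbp5 and the highest ependymal and choroid plexus sum, 8675.7 TPM. Replicate 2 of Cd38-/- had the most of both in its genotype, the sum being 4492.8 TPM. Replicate 1 of Cd38+/+ had the most Igfbp5 of its genotype and the lowest sum, 1619.1 TPM. The part of these cells in the level of Igfbp5 was not tested.

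**Figure D3:**
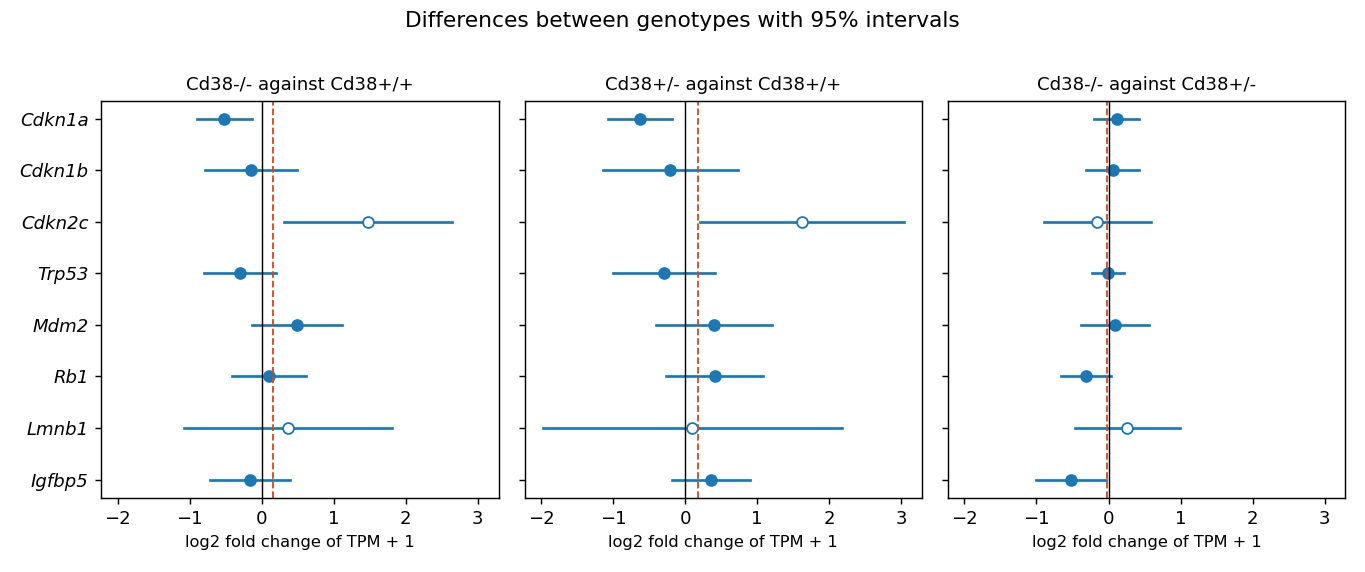
Log2 difference of TPM + 1 (horizontal axis) for 8 of the 9 genes in the 3 comparisons, with 95% limma intervals; open points come from the fit without the filter on low values, the solid line is 0 and the dashed line the median over all genes tested. The intervals of Cdkn1a and Cdkn2c exclude 0 in both comparisons with Cd38+/+, and that of Igfbp5 does in Cd38-/- against Cd38+/-.

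The median log2 difference over all genes was 0.15 in Cd38-/- and 0.18 in Cd38+/- against Cd38+/+, and -0.02 between the mutant genotypes. Median-ratio scaling moved the first to 0.03 and the second to 0.05. Relative to the median of all genes, Cdkn1a stood at -0.67 and -0.81, Trp53 at -0.46 and -0.48 and Mdm2 at 0.34 and 0.22 on the log2 scale in the comparisons of Cd38-/- and Cd38+/- with Cd38+/+, which share the Cd38+/+ libraries.

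Ordered by mean TPM, which is per transcript length, Cdkn1a stood above all other members in Cd38+/+, without overlap with the next gene, Mdm2, and higher than 91.5% of all genes. In Cd38+/- and Cd38-/- Mdm2 led, but its range overlapped that of Cdkn1a. Igfbp5, Trp53 and Rb1 followed in that order in Cd38+/+ and Cd38-/-, each overlapping the next, and in Cd38+/- Rb1 stood above Trp53 with overlap. Cdkn1b came next, without overlap with Lmnb1 and Cdkn2c below it, and Cdkn2a was last in every genotype.

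The 3 filtered members with the largest spread over the 12 libraries were Mdm2, Igfbp5 and Cdkn1b. The genes whose centred log2(TPM + 1) values lay nearest to Mdm2 were Aph1b and Thoc2, with root mean square differences of 0.12 and 0.134, beside a median of 0.515 over 11373 genes. Nearest to Igfbp5 were Tmem170b at 0.159 and Nacc1 at 0.169, beside a median of 0.485. Nearest to Cdkn1b were Rnf41 at 0.142 and Rrp9 at 0.143, beside a median of 0.46. These are descriptions over 12 libraries that share their genotypes and their detection.

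Around the 9 members, 152 genes in 10 lists covered the same pathways and the handling of the tissue. Between Cd38-/- and Cd38+/+, 103 of them were tested and 9 were called, 5 higher and 4 lower, or 8.74% beside 8.28% of all genes. In Cd38+/- against Cd38+/+, 0 of 103 were called by limma and 16 had an unadjusted p under 0.05, or 15.5% beside 13.5% of all genes. Between Cd38-/- and Cd38+/-, 0 of 100 were called by limma and 6 had an unadjusted p under 0.05, or 6.0% beside 11.2%. The share of called genes over these lists together was thus near that of all genes, which does not hold for each list.

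Of 21 p53 target genes, 17 were tested in Cd38-/- against Cd38+/+, and 2 rose and 1 fell, where 8.28% of all genes were called. At an unadjusted limma p under 0.05, 4 of the 17 were higher and 4 lower, beside 23.6% of all genes in both directions together. The median log2 difference of the list was 0.14 beside 0.15 for all genes. Perp, a desmosomal protein that p53 induces in apoptosis, was at 1.28, 2.39 and 6.22 TPM in Cd38+/+ and at 12.75 to 24.71 TPM in Cd38-/- libraries. It rose by 2.21 on the log2 scale (limma q = 0.0108), without overlap. Ccng1, a cyclin induced by p53, rose by 0.69 from 39.5 ± 4.76 to 65.3 ± 13.3 TPM (limma q = 0.0401), with overlap. Fas, the death receptor, fell by 0.76 on the log2 scale, from 64.39 to 79.11 TPM in Cd38+/+ to 32.18 to 61.59 TPM in Cd38-/- libraries (limma q = 0.0327). The called targets thus did not share a direction. Of 14 p53 regulators, 13 were tested and none was called, with a median of 0.28. The smallest p belonged to the coactivator Ep300, whose log2 difference was 1.06 (limma q = 0.0647), and to the kinase Atm, which activates p53 after DNA breaks, with 0.95 (limma q = 0.0729). Ep300 passed in 4 and Atm in 6 of 22 other settings.

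Among 24 G1 cyclins, kinases and Rb-E2F genes, 15 were tested and 1 rose, with a median of 0.27 on the log2 scale. This was Rbl2 (p130), the Rb relative of quiescent cells, which rose by 0.77 from 29.1 ± 8.18 to 49.6 ± 9.25 TPM (limma q = 0.0383). Of 18 proliferation genes only 9 passed the filter and 1 rose, with a median of -0.01. Mcm2, a subunit of the replicative helicase, read 0, 0 and 4.86 TPM in the Cd38+/+ libraries and 6.36 to 14.2 TPM in Cd38-/- libraries, a log2 difference of 2.28 (limma q = 0.0294). With 2 Cd38+/+ libraries at 0 its size depends on the pseudocount, and it ran from 1.04 to 4.41 over the other settings and from 1.86 to 3.13 without single libraries. Among 13 genes of lamins and the nuclear envelope, all were tested and 1 rose, Tmpo, a lamina-associated protein, by 0.67 from 48.5 ± 10.2 to 77.0 ± 9.94 TPM (limma q = 0.0329), with a median of 0.10.

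Of 14 genes of IGF-binding proteins and the IGF axis, 8 were tested and 1 fell, Igfbp3, a relative of Igfbp5. It was at 19.17, 19.26 and 32.7 TPM in Cd38+/+ and at 4.01 to 7.31 TPM in Cd38-/- libraries and fell by 1.82 on the log2 scale (limma q = 0.00947), while the median of the list was -0.14. Of 21 secretory genes of senescence only 5 passed the filter and 1 fell, the phosphoprotein gene Spp1, from 35.9 ± 3.79 to 15.5 ± 4.57 TPM (limma q = 0.0195), and the median of the 5 was 0.00. Of 10 Polycomb genes, which silence Cdkn2a in dividing cells, 8 were tested and none was called. The smallest p belonged to Rnf2, with a log2 difference of 1.04 (limma q = 0.0637), and to Ezh2, with 0.96 (limma q = 0.0681), and the median was 0.30. Rnf2 passed in 3 and Ezh2 in 2 of 22 other settings.

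**Figure D4:**
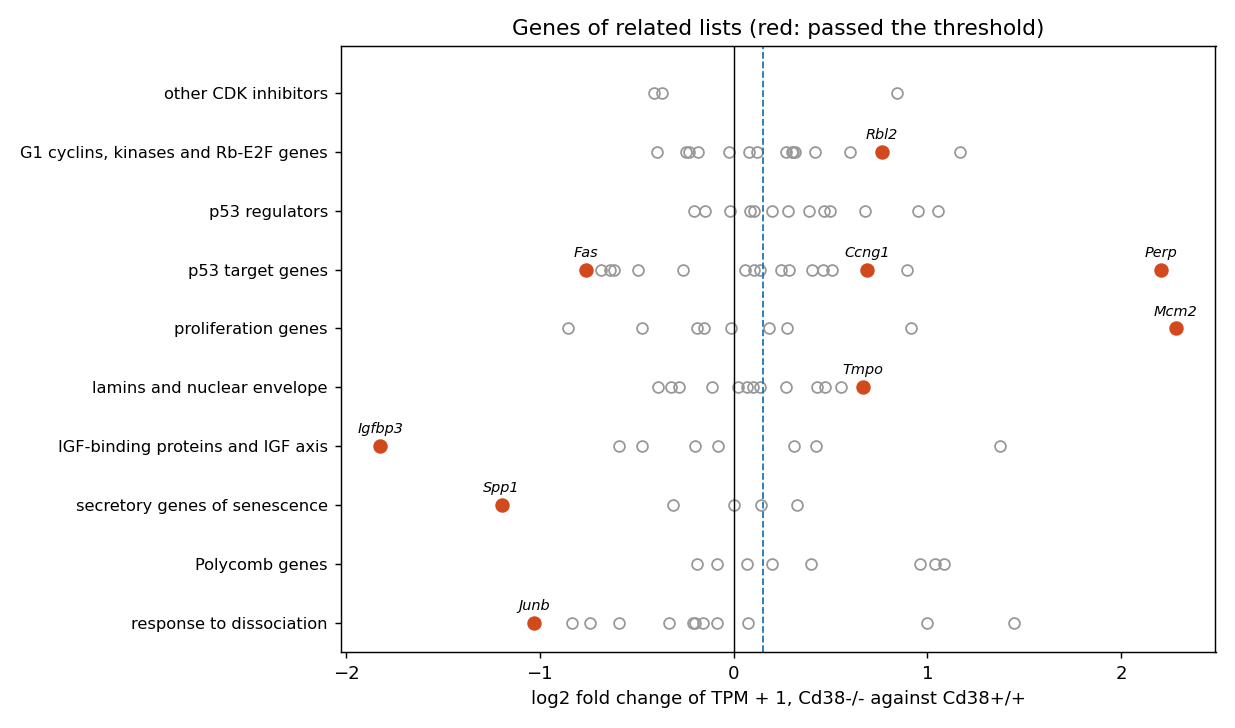
Log2 difference of TPM + 1 in Cd38-/- against Cd38+/+ (horizontal axis) for each tested gene of the 10 lists (rows); red filled points passed the threshold, and the dashed line is the median of all genes tested, 0.15. The 9 called genes are spread over 7 lists, 5 to the right of 0 and 4 to the left.

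Among these 9 genes, Perp and Igfbp3 passed without any single library, with q up to 0.0399 and 0.0372. The calls on the other 7 were each lost without Cd38-/- replicate 1, 2 or 5, those on all but Spp1 also without replicate 6, that on Ccng1 without replicate 3 and that on Rbl2 without Cd38+/+ replicate 1, at q from 0.0507 to 0.099. With library quality weights all 9 missed the threshold, at q from 0.216 to 0.401. Benjamini-Hochberg adjustment lost Rbl2, Fas, Ccng1, Mcm2 and Tmpo at adjusted p from 0.052 to 0.0709. The length and GC correction lost Ccng1 (q = 0.054) and Junb (q = 0.0699), fitting without the trend lost Ccng1 (q = 0.0532), and quantile normalization lost Mcm2 (q = 0.0683).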

How the data were processed

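RNA of ACSA-2-selected midbrain astrocytes was sequenced in 12 libraries. Per the submitters' notes and the methods of the study, the authors trimmed reads with Trim Galore 0.6.4, mapped them to mm10 with STAR 2.7.1a and estimated expression with RSEM 1.2.28. The annotation and the use of strand are not given in the sources used here. The deposited values are TPM, rounded to 2 decimals, 1 column per library and not pooled. Depth is unknown, which limits the precision of low values to what the replicates show. The labels name polyA RNA, while the series' design text names depletion of ribosomal RNA; which was used was not settled here.

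Genotypes came from the labels. Positions came from GENCODE vM21 on GRCm38, which holds 20503 of the 20614 genes, and promoter windows from RefSeq GRCm38.p6. The values of log2(TPM + 1) were fitted with limma 3.58.1 (lmFit, eBayes with a trend) under R 4.3.3, each fit holding the 2 genotypes compared. Genes needed a mean above 5 TPM in 1 of them. For Storey q-values lambda went from 0.05 up to 0.95 by 0.05, and a call needed q under 0.05 and 1.2-fold. Single genes also had two-sided exact permutation tests on log2(TPM + 1). The procedure was tested on simulated data. The simulated libraries of a gene had the same spread in both genotypes, so that test does not cover the larger spread of Cd38+/+. Figures were drawn with matplotlib 3.10.9.

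The members and the gene lists were chosen with earlier results of these data known, and some list genes are named by the study on the same libraries, so no list is independent evidence. Genes named are the 9 members, Cd38, called genes of each pathway list (at most 4) or otherwise the 2 with the smallest p, and the 2 genes nearest in pattern to each of 3 members. Each result was recomputed with a pseudocount of 0.1 or 5, without the filter, with a TPM of at least 1 in every library, Benjamini-Hochberg adjustment, no fold threshold, eBayes without the trend, library quality weights (statmod 1.5.0), quantile normalization, median-ratio scaling, a single fit of all 12 libraries, a replicate block, a correction for length and GC content (a 4-df spline), the block and the correction together, and without each library in turn.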

Additional observations from a re-analysis of the deposited data

Results flagged for a closer look

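In the 6 Cd38-/- libraries, 3 of 8 members, leaving out Cdkn2a, had a highest library farther from the rest than Dixon's 95% critical value. Chance would single out about 1 in 20 groups if values were normal and groups independent. Here the values were TPM without a log, and 2 of the 3 flags fell on the same library, so that rate is no measure of these flags. Cdkn1a was highest in replicate 1, at 105.36 TPM, with the next library at 76.39 and the lowest at 63.78 TPM. Cdkn2c stood at 9.82 TPM in replicate 2, with the next at 3.51 and the lowest at 2.59 TPM. Lmnb1 was at 8.1 TPM in the same replicate, with the next at 4.1 and the lowest at 2.59 TPM. Cdkn2a was listed at 0.08 TPM in replicate 5 and at 0 in the other 5 libraries; with these tied, any value above 0 would pass the criterion, so it says nothing of that library.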

How the results depend on the processing

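Depth is unknown, so low values have no counting limit, and 3 libraries set the precision of each comparison with Cd38+/+. Genes called in Cd38-/- against Cd38+/+ numbered 970 as reported, 2283 without the filter, 326 with Benjamini-Hochberg adjustment, 1 with library quality weights, 1822 with all 12 libraries in one fit, and 74 to 3119 without single libraries. In Cd38+/- against Cd38+/+ they numbered 0 as reported, 663 without the filter, 9 without the trend, 30 with quality weights, 1464 with all 12 libraries, and 0 to 10 without single libraries. In Cd38-/- against Cd38+/- they numbered 4 as reported, 3120 with quality weights, 1 with median-ratio scaling, 1 with all 12 libraries, 2 with the length and GC correction, and 0 to 93 without single libraries. Members called in Cd38-/- against Cd38+/+ were 0 as reported, 1 with a pseudocount of 0.1, 1 without the filter, 1 with median-ratio scaling, 1 with quantile normalization, 2 with all 12 libraries, and 0 to 2 without single libraries. In Cd38+/- against Cd38+/+ they were 2 with all 12 libraries and 0 to 1 without single libraries, and in Cd38-/- against Cd38+/- 1 with quality weights. The replicate block called 2, 4 and 2 genes and the replicate block with the length and GC correction 2, 2 and 7 in the 3 comparisons, with no member among them, and the replicate block lost the calls on all 9 list genes named as called in Cd38-/- against Cd38+/+, Perp and Igfbp3 included (q = 0.318 for both). Whether equal replicate numbers mark a shared batch or litter is not stated. Deviations from the genotype mean correlated at -0.317 to 0.501 over 9 pairs with the same number, 1 of them over 0.1. Over 36 others they correlated at -0.557 to 0.529. Deviations from a mean of only 3 libraries are tied to one another, so these values cannot decide whether libraries were paired. Of 494 values of 8 members under other settings, 452 kept their direction and side of the threshold, 14 passed it anew and 28 changed sign, none of those a called value. Some of the settings, such as the adjustment, the fold threshold and the trend, cannot change a sign, so 452 is no measure of stability. For Rb1 in Cd38-/- against Cd38+/+ the log2 difference was -0.0192 with median-ratio scaling, -0.0346 with quantile normalization, -0.027 with the length and GC correction and -0.12 to 0.28 without single libraries. For Cdkn1b it was -0.51 to 0.0598 without single libraries in Cd38-/- against Cd38+/+, 0.0034 with quality weights and -0.57 to 0.0004 without single libraries in Cd38+/- against Cd38+/+, and -0.11 with quality weights and -0.0657 to 0.13 without single libraries between the mutants. For Lmnb1 it was -0.16 with quantile normalization and -0.58 to 0.84 without single libraries in Cd38-/- against Cd38+/+, and -0.0858 with a pseudocount of 5, -0.48 with quantile normalization and -0.84 to 0.58 without single libraries in Cd38+/- against Cd38+/+. Between the mutants it was 0.0598 for Cdkn2c with the replicate block and 0.10 with the block and the correction, and for Trp53 0.0046 with median-ratio scaling, 0.0078 with quantile normalization, 0.0103 with the replicate block, 0.0273 with the correction, 0.0565 with both and -0.0409 to 0.0144 without single libraries, and for Mdm2 -0.0662 to 0.29 without single libraries. Cdkn2b in Cd38-/- against Cd38+/+ was 0.0324 with the replicate block and the correction. The cause of these changes was not tested. Cdkn2c and Lmnb1 have no value with 1 TPM required in every library in the comparisons with Cd38+/+, their reported fit is already the one without the filter, and no fold is given for Cdkn2a, listed at 0 in nearly all libraries. The call on Cd38 was lost with quality weights in Cd38-/- against Cd38+/+ (q = 0.109) and without Cd38+/- replicate 3 in Cd38-/- against Cd38+/- (q = 0.0595).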
